A study of Mus musculus with 6 samples.

Results

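Sprouty, Spred, ERK phosphatase and related feedback genes were followed in mouse mesenchymal stem cells exposed to pulsed broadband terahertz radiation. The 10 genes are Spry1, Spry2, Spry4, Spred1, Spred2, Dusp4, Dusp5, Dusp6, Phlda1 and Etv5, out of 18193 genes with a probe set on the array. All probe sets that carry exactly 1 of these symbols were taken, 27 in number. The genes were chosen by name for their role, with the irradiated minus control differences of these same arrays already in view. Their differences are therefore given as a description, without a test.

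Growth factors such as fibroblast growth factors bind receptor tyrosine kinases on the cell surface and switch on Ras, Raf, Mek and finally the kinase ERK. Active ERK induces a set of genes whose products act back on the pathway. Sprouty and Spred proteins restrain Ras and Raf activation, and the dual specificity phosphatases encoded by Dusp genes remove the activating phosphates from ERK itself. Stromal cells that can form fat, bone or cartilage use this pathway in proliferation and in the choice of fate, and transcripts of the feedback genes are widely read as a sign of ERK activity.

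Irradiated cultures received 12 h of broadband terahertz pulses centred near 10 THz, at 1 kHz and an average power density of 1 mW/cm2. Control cultures stood beside them without irradiation, and both were held at 26 to 27 °C. Cells of both groups came from 1 commercial source and grew in α-MEM with 5% serum. Both groups also received 1 µM rosiglitazone (written Roziglitazone in the labels), 5 µg/ml insulin, 100 µM of 3-Isobutyl-1-methylxanthine, which blocks phosphodiesterases, and 1 µM dexamethasone, so the controls are cells under fat-inducing drugs as well. The cocktail was added again 48 h before irradiation. There were 3 independent experiments, each with 1 irradiated and 1 control culture, hence 6 arrays. Values are deposited log2 expression per probe set, and the small number of arrays limits the precision.

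The labelled cell type was checked against marker genes. Stromal markers were bright, with 8 of 9 measured at a log2 value of 6 or more and Col1a2 at a mean of 13.46 in irradiated and 13.38 in control cultures, but Thy1 was dim, at 4.07 in irradiated and 4.11 in control cultures. All 7 measured fat cell markers and all 12 myeloid markers also reached 6, among them Csf1r, the receptor of macrophages for colony-stimulating factor, at 12.92 in irradiated and 13.03 in control cultures. Each of the 12 myeloid markers had a lower mean in irradiated cultures, 5 of them in all 3 experiments. Of all 9302 genes with a mean of at least 6 in 1 group, 18.7% were lower in all 3. Among 9 stromal markers 4 had a lower mean, 2 of them in all 3 experiments. Among 7 fat cell markers 5 had a lower mean, 0 of them in all 3. The mean level of the 12 myeloid markers lay between 11.14 and 11.76 on irradiated arrays and between 11.37 and 11.91 on control arrays. Their median differences were -0.23, 0.08 and -0.12 in experiments 1, 2 and 3. None of 6 endothelial and 1 of 5 epithelial markers reached 6. In mixed cultures of this kind, fewer cells of a type and less RNA per cell cannot be told apart. The part of myeloid cells in the values below was not tested. Spiked hybridisation controls had an irradiated minus control difference of 0.08, -0.03 and 0.50 in experiments 1, 2 and 3, and the part of the last in the values below was not tested. The 3 prime minus 5 prime signal of control transcripts is a sign of RNA quality. In experiments 1, 2 and 3 it was 0.19, 0.25 and 0.385 on irradiated arrays. On control arrays it was 0.195, 0.275 and 0.375, so both groups were highest in experiment 3. The part of this in the values below was not tested.

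The 10 genes did not differ in 1 direction. Spry4 and Phlda1 had the lowest irradiated minus control differences, Spry1 and Dusp5 the highest, and the remaining 6 lay between. On the brightest probe set of each gene, the mean was lower in irradiated cultures for 4 genes and higher for 6. Spry2, Spry4 and Phlda1 were lower in all 3 experiments, which is 3 of 10, where 18.7% of all 9302 genes with a mean of at least 6 in 1 group were. Spred2 alone was higher in all 3, where 18.6% of the 9302 genes were. For Spry4 alone the irradiated and control values did not overlap, where 12.5% of the 9302 genes had groups that did not overlap. The median difference was 0.033 over the 10 genes and 0.0033 over the 9302 genes. It was -0.04 without experiment 2 and 0.11 without experiment 3. No probe set of the array passed, 0.0% of 45037 at a limma adjusted p under 0.05, and 3631 (8.06%) had an unadjusted p under 0.05. When the experiment was a random effect instead, 2 probe sets passed, neither of a gene described here.

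**Figure D1:**
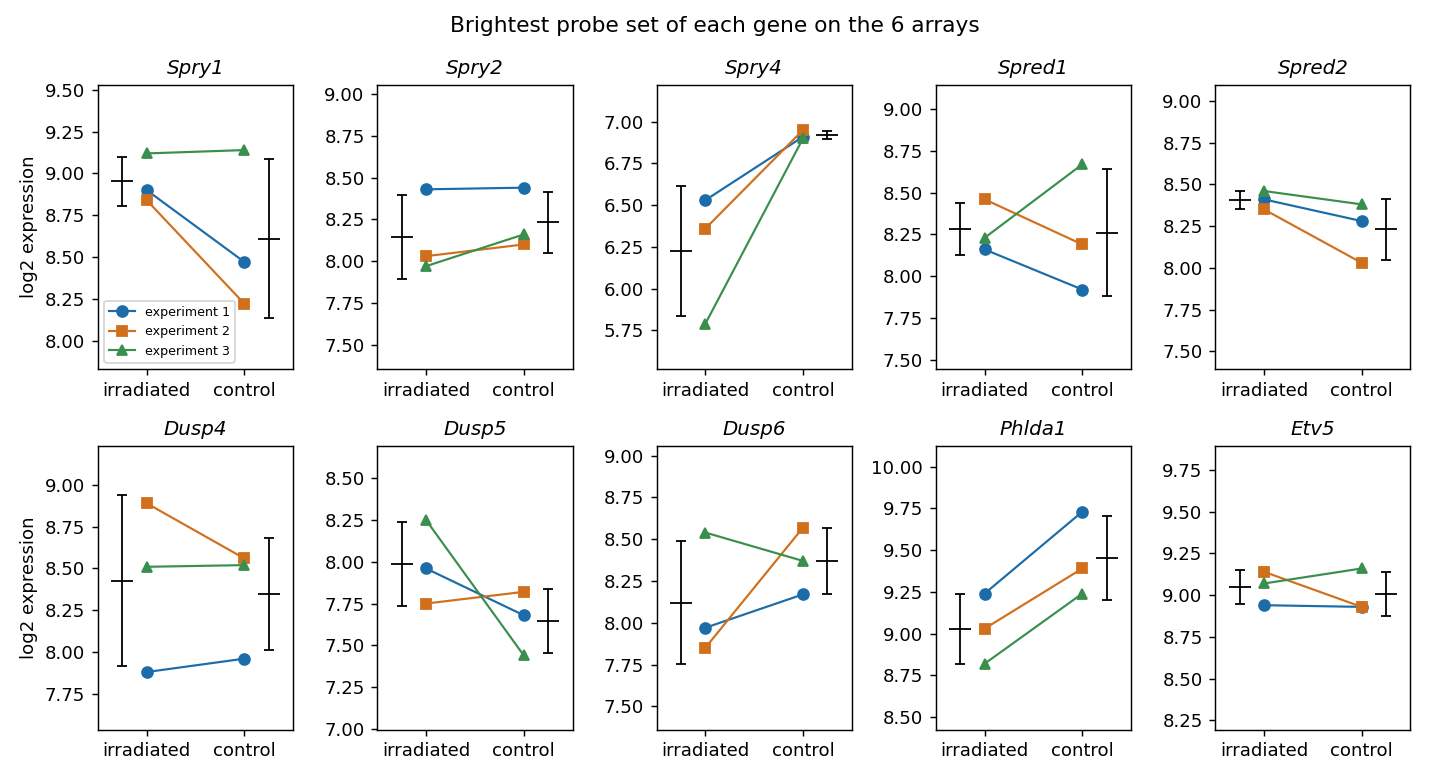
Log2 expression of the brightest probe set of each gene, with irradiated cultures on the left and controls on the right of each panel; lines join the cultures of 1 experiment, and the bars beside them are mean and SD over 3 arrays. Every panel spans the same range of log2 values. Spry4 separates into low irradiated and high control values, the 3 Phlda1 lines are nearly parallel, and the Dusp6 and Spred1 lines cross.

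Sprouty genes encode inhibitors that are recruited to the membrane after growth factor stimulation. Spry4 read 6.53, 6.36 and 5.79 in irradiated cultures of experiments 1, 2 and 3, against 6.91, 6.95 and 6.90 in their controls. All 3 irradiated values lay below all 3 control values, and the controls were nearly equal while the irradiated cultures spread widely. The mean was 6.23 ± 0.39 in irradiated and 6.92 ± 0.03 in control cultures (SD, n = 3 each), a log2 difference of -0.69 ± 0.15 (SE), or 1.62-fold lower. Experiment 3 gave the widest of the 3 differences, -1.11 against -0.38 and -0.59. Without experiment 3 the mean difference was -0.49.

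Of the 4 Spry4 probe sets, this was the single one that reached a log2 value of 6. The next brightest, at 4.69 ± 0.22 in irradiated and 5.12 ± 0.25 in control cultures (SD, n = 3 each), differed by -0.35, -0.03 and -0.90 in the 3 experiments. The other 2 differed by -0.06 ± 0.09 and -0.05 ± 0.14 (SE). All 4 means were thus below 0, but 3 of them came from dim probe sets. With the mean over all 4 probe sets in place of the brightest, the Spry4 difference was -0.31.

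Spry1 lay at the other end. It read 8.90, 8.84 and 9.12 in irradiated cultures, against 8.47, 8.22 and 9.14 in controls. The irradiated values were higher in experiments 1 and 2 and level with the control in experiment 3, whose control was the highest of all 6 arrays, so the groups overlapped. The difference was 0.34 ± 0.14 (SE), made of 0.43, 0.62 and -0.02. It was 0.53 without experiment 3 and 0.21 without experiment 2.

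Spry2 had the smallest difference among the 3 Sprouty genes. Its brighter probe set read 8.43, 8.03 and 7.97 in irradiated cultures, against 8.44, 8.10 and 8.16 in controls, a difference of -0.09 ± 0.10 (SE). Both groups were highest in experiment 1, and the gap between experiments was wider than that between groups. The second probe set, near 6, differed by -0.20, 0.28 and -0.10, so its sign was not the same in all 3 experiments.

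Spred proteins are relatives of the Sprouty proteins, and Spred1 brings the Ras inhibitor neurofibromin to the membrane. The brightest Spred1 probe set read 8.16, 8.46 and 8.23 in irradiated cultures, against 7.92, 8.19 and 8.67 in controls. Irradiated values were higher in experiments 1 and 2 and lower in experiment 3, which left a mean difference of 0.023 ± 0.16 (SE). Without experiment 3 the mean was 0.26, and without experiment 2 it was -0.10. This change of sign was shared by the other bright probe sets of the gene. In experiment 1 all 4 probe sets at 6 or more were higher in irradiated cultures, in experiment 2 there were 3 of 4, and in experiment 3 all 4 were lower, with differences of -0.65 to -0.41. Of these 4 probe sets 3 were designed on the same sequence record, so they are not independent readings.

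Spred2 read 8.41, 8.35 and 8.46 in irradiated cultures, against 8.28, 8.03 and 8.38 in controls. It was higher in irradiated cultures in each experiment, by 0.13, 0.32 and 0.08, yet the groups overlapped, and the mean difference was 0.18 ± 0.10 (SE). Its other 4 probe sets were dim, with means between 3.81 and 5.20, and differed by -0.04 to 0.13. The Spred2 difference was 0.11 without experiment 2 and 0.05 with the mean over all 5 probe sets.

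**Figure D2:**
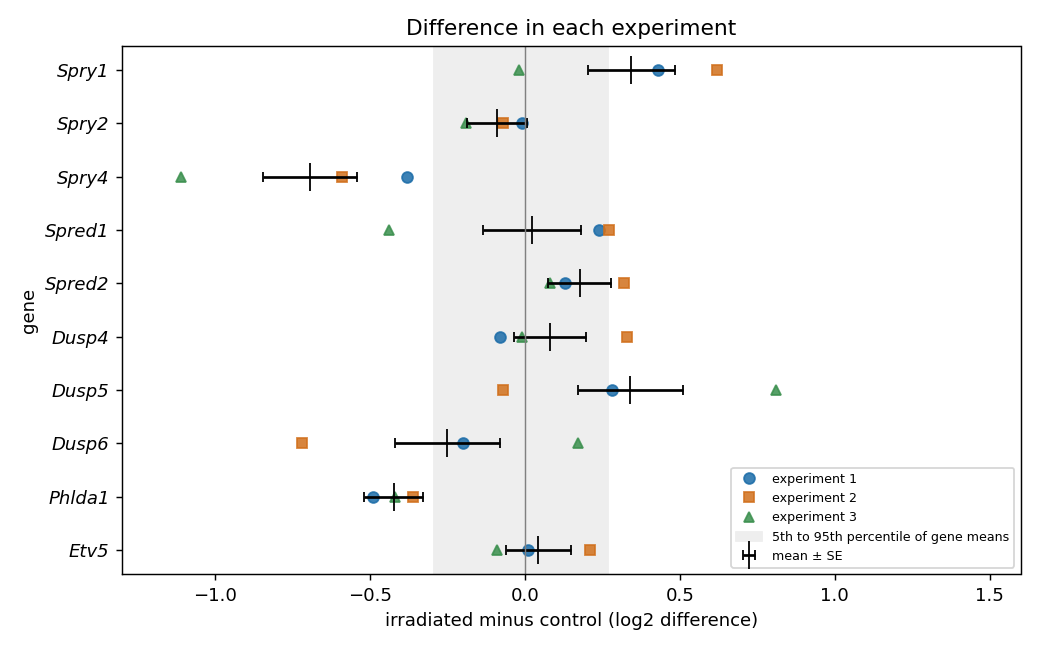
Irradiated minus control log2 difference of the brightest probe set in each experiment (coloured symbols) with the mean and its SE from the limma fit (black); the grey band runs from the 5th to the 95th percentile of mean differences over the 9302 genes at a mean of at least 6, -0.29 to 0.27. Spry4 and Phlda1 lie to the left of the band and Spry1 and Dusp5 to the right, while symbols of 1 gene are often far apart.

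The ERK phosphatase genes were Dusp4, Dusp5 and Dusp6. Dusp5 encodes a nuclear phosphatase with a preference for ERK, Dusp6 its cytoplasmic counterpart, and Dusp4 a nuclear phosphatase that also acts on other MAP kinases. The start site window of Dusp5 is shown because it was the only one of 8 windows of these genes that held CArG boxes, and that of Dusp6, its cytoplasmic counterpart, beside it. Each stretch holds the 250 bases before the annotated start on the + strand, from RefSeq, build GRCm38.p6. They lie at chr19:53528895-53529144 for Dusp5 and at chr10:99262981-99263230 for Dusp6. Capitals mark CArG boxes, the sequence read by serum response factor.
Dusp5: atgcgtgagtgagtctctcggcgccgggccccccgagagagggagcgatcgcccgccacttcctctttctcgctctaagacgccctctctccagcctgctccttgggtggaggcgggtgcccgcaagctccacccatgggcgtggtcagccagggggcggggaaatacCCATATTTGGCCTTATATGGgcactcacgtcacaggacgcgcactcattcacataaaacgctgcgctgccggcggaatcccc
Dusp6: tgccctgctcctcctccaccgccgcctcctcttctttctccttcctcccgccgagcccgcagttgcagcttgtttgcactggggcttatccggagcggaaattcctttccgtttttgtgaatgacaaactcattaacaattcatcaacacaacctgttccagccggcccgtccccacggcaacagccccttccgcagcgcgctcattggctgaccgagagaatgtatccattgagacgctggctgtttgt

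Dusp5 read 7.96, 7.75 and 8.25 in irradiated cultures, against 7.68, 7.82 and 7.44 in controls. The irradiated value was higher in experiments 1 and 3 and slightly lower in experiment 2, and the groups overlapped. The difference of 0.34 ± 0.17 (SE) rested mostly on experiment 3, at 0.81, against 0.28 and -0.07. It was 0.11 without experiment 3 and 0.55 without experiment 2.

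Dusp6 read 7.97, 7.85 and 8.54 in irradiated cultures, against 8.17, 8.57 and 8.37 in controls. It was lower in irradiated cultures in experiments 1 and 2 and higher in experiment 3, so the groups overlapped. The difference of -0.25 ± 0.17 (SE) was made of -0.20, -0.72 and 0.17, with -0.015 left without experiment 2 and -0.46 without experiment 3. Dusp5 and Dusp6 both had their highest difference in experiment 3 and their lowest in experiment 2, while their means had opposite signs.

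Dusp4 read 7.88, 8.89 and 8.51 in irradiated cultures, against 7.96, 8.56 and 8.52 in controls. Experiment 1 was low and experiments 2 and 3 were high in both groups. The range over the 3 controls was 0.60, and the irradiated minus control difference was 0.08 ± 0.12 (SE), with 0.33 in experiment 2 against -0.08 and -0.01 in experiments 1 and 3.

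The CArG boxes of Dusp5 lie end to end, from 82 to 73 and from 72 to 63 bases before the start. Windows of 300 bases, from 250 before to 50 after the start, were searched on both strands in 8 windows of 7 of the 10 genes. Spry4, Dusp4 and Phlda1 were not used here. A CArG box was found in 1.63% of all 32851 mouse windows of this length and in 1 of the 8. At least 2 of them stood in 6 windows of the 32851 (0.0183%). The core of the ETS factor site, CCGGAA, was found in 14.9% of all windows and in 1 of the 8, that of Spry2, at 33 to 38 bases after the start. The cAMP response element TGACGTCA, in 1.79% of all windows, and the AP-1 site TGANTCA, in 7.81%, were found in none of the 8. No match overlapped another. These are matches of letters and say nothing of binding in these cells.

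Phlda1 and Etv5 belong to the same transcriptional response. Phlda1, which encodes a protein with a pleckstrin homology-like domain and is induced by growth factors, read 9.24, 9.03 and 8.82 in irradiated cultures, against 9.73, 9.39 and 9.24 in controls. Each irradiated culture was below its own control by nearly the same amount, with differences of -0.49, -0.36 and -0.42, and both groups were highest in experiment 1 and lowest in experiment 3. The highest irradiated value equalled the lowest control value. The mean was 9.03 ± 0.21 in irradiated and 9.45 ± 0.25 in control cultures (SD, n = 3 each), and the difference was -0.42 ± 0.10 (SE), or 1.34-fold lower. The SD of the 3 differences, 0.07, was below that of the other 9 genes, which ran from 0.09 to 0.45. The gene has 1 probe set, so no second reading was at hand.

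Etv5 encodes a transcription factor of the ETS family that is induced downstream of fibroblast growth factor receptors. It read 8.94, 9.14 and 9.07 in irradiated cultures, against 8.93, 8.93 and 9.16 in controls, a difference of 0.043 ± 0.10 (SE). The groups overlapped, and experiment 2 alone showed a difference above 0.10 in size. The second probe set at 6 or more differed by -0.02, 0.27 and -0.39, with the same order of the experiments as the first.

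**Figure D3:**
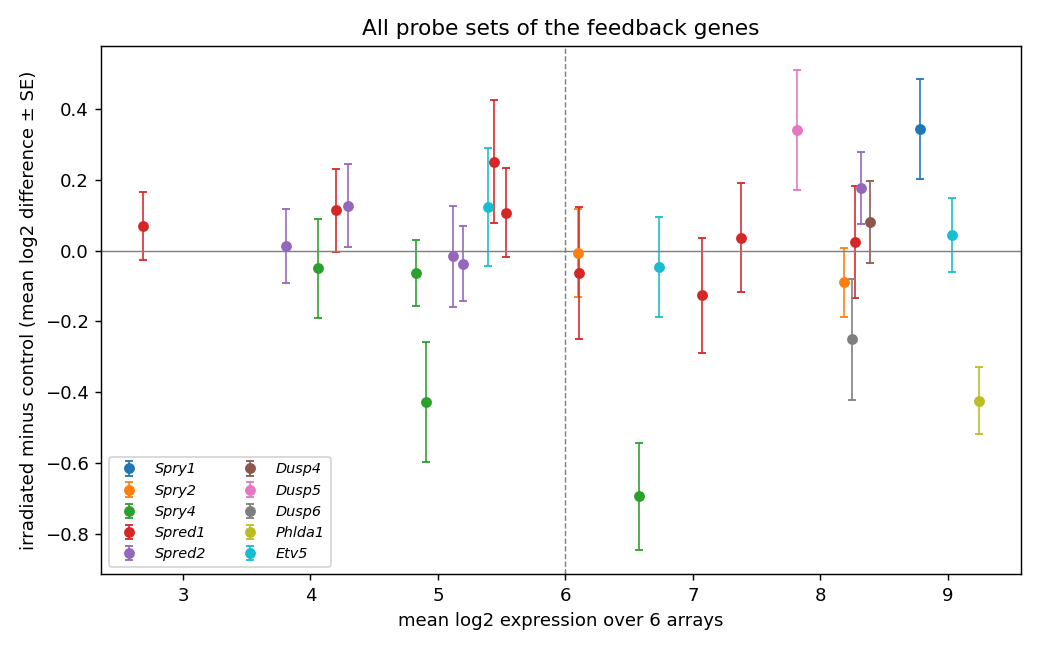
Mean irradiated minus control log2 difference with its SE against the mean log2 expression over the 6 arrays, for all 27 probe sets of the 10 genes; the dashed line marks the log2 value of 6. Of the 27 probe sets 15 had a mean of at least 6 in 1 group and 12 were dim, and the lowest point is Spry4 at -0.69.

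Levels also varied between experiments. For 9 of the 10 genes the range over the 3 control arrays was wider than the mean irradiated minus control difference, where 83.1% of the 9302 genes had such a range. Spry4, with a control range of 0.05, was the exception. Phlda1 is among the 9, with a control range of 0.49, although its paired differences were close to each other. The median control range was 0.39 over the 10 genes, while the median size of the difference was 0.21. Over the 9302 genes the median size of the difference was 0.10. The scatter between experiments was also wider, with a median SD of the 3 differences of 0.27 over the 10 genes and 0.14 over the 9302 genes. Across the 10 genes the differences of experiments 1 and 2 had 1 sign in 8, those of 1 and 3 in 6, and those of 2 and 3 in 4. Over the 10 genes these differences had a Pearson correlation of 0.76 for experiments 1 and 2, 0.55 for experiments 1 and 3, and 0.26 for experiments 2 and 3. These are descriptions over genes measured on the same arrays and chosen with their differences in view. The same sign counts and correlations over the 9302 genes were not computed.

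Correlations between the genes over the 6 arrays had both signs. Of 45 pairs of genes 18 had a correlation above 0 and 27 below 0, with a median of -0.10. Spry1 and Spred2 had the highest correlation, 0.91, followed by Spred1 and Etv5 at 0.88 and by Spry4 and Phlda1 at 0.85. Spry2 and Dusp4 had the lowest, -0.91, then Spry4 and Dusp5 at -0.81. Each value rests on 6 arrays that share experiment and treatment. The same counts over pairs of other genes were not computed, so these are a description only. The mean of the centred profiles of the 10 genes was nearly flat, between -0.04 and 0.11, and was highest on the control array of experiment 3. Among 4974 other genes, the 5 with the most similar profile over the 6 arrays were Ppp1r12c (r = 0.998), Sesn1 (0.989), Vmp1 (0.988), Gfpt2 (0.987) and Anks1 (0.985). All 5 were highest on that same control array, as Gfpt2 shows with 6.19, 6.43 and 6.32 in irradiated cultures against 6.19, 6.30 and 7.56 in controls.

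The rest of the pathway was read from 7 lists with 115 genes, of which 105 were measured and 80 reached a mean of 6 in 1 group. None of the 105 passed in either direction by limma with Benjamini-Hochberg adjustment, against 0.0% of all probe sets, and 15 had an unadjusted p under 0.05. Of the 80 genes 13 (16.3%) were among these 15, where 10.8% of the 9302 genes had an unadjusted p under 0.05. The lists were chosen with earlier results of these data known, so this share is a description only. Of the 80 genes also 13 (16.3%) were lower and 14 (17.5%) higher in all 3 experiments, close to the 18.7% and 18.6% of the 9302 genes. Their median difference was 0.037. The smallest limma adjusted p among them was 0.53, so the values below are given as measurements.

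Among growth factor ligands, 21 of 22 were measured, 12 reached 6, and 2 of these were lower and 4 higher in all 3 experiments, with a median of 0.09. Ereg, which encodes the EGF receptor ligand epiregulin, differed by -0.64 ± 0.12 (SE), made of -0.66, -0.84 and -0.41. Fgf7, a stromal growth factor for epithelial cells, differed the other way, by 0.48 ± 0.09 (SE), and its second probe set by 0.56 ± 0.10 (SE). Kitl, the ligand of the receptor Kit, differed by 0.29 ± 0.09 (SE) on its brightest probe set and by 0.29 ± 0.09 (SE) on the next. Its dimmer probe sets differed by 0.12 ± 0.16 (SE) and -0.16 ± 0.15 (SE). Fgf10 differed by -0.31 ± 0.10 (SE). It is 1 of the 2 lower genes and entered the count through its controls alone, with a mean of 5.80 in irradiated and 6.10 in control cultures.

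All 18 receptor tyrosine kinases were measured and 12 reached 6, 2 of them lower and 2 higher in all 3 experiments, with a median of 0.03. Fgfr2, whose epithelial form binds Fgf7 and Fgf10, read 9.92 ± 0.15 in irradiated and 9.49 ± 0.13 in control cultures (SD, n = 3 each). Its difference was 0.44 ± 0.09 (SE), with 0.46, 0.43 and 0.42 in the 3 experiments, but its second probe set differed by 0.35, 0.37 and -0.27. The collagen receptor Ddr2 differed by 0.24 ± 0.10 (SE), Pdgfrb, a receptor for platelet-derived growth factor, by -0.28 ± 0.10 (SE), and Axl by -0.22 ± 0.10 (SE).

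Adaptors, Ras, Raf, Mek and Erk genes lay close to 0 on their brightest probe sets. Of 25 listed genes 17 were measured, all above 6, with a median of 0.00 and a range of -0.23 to 0.15. There were 4 lower and 3 higher in all 3 experiments. Those lower were Mknk2, a kinase activated by ERK, at -0.23 ± 0.11 (SE), the Ras exchange factor gene Sos1 at -0.22 ± 0.12 (SE), Map2k1, which encodes Mek, at -0.18 ± 0.09 (SE) and the scaffold gene Ksr1 at -0.17 ± 0.10 (SE). The second probe set at 6 or more differed by -0.33 ± 0.12 (SE) for Mknk2 and by -0.33 ± 0.11 (SE) for Sos1, both outside that range. Dim Sos1 probe sets differed by -0.06, 0.47 and -0.31. The remaining 8 of the 25 listed genes were not analysed here.

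Transcription factors that ERK phosphorylates were all measured, 8 of 8 at 6 or more, with 2 lower and 1 higher in all 3 experiments and a median of 0.05. Ets2 read 9.49 ± 0.38 in irradiated and 10.05 ± 0.36 in control cultures (SD, n = 3 each), and differed by -0.59, -0.25 and -0.86. The second Ets2 probe set at 6 or more differed by -0.68 ± 0.12 (SE). The repressor gene Erf differed by -0.43 ± 0.17 (SE) and the repressor gene Cic by -0.24 ± 0.16 (SE), both with the widest gap in experiment 3. Elk4 differed by 0.12 ± 0.10 (SE), and its second probe set by -0.15 ± 0.12 (SE).

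Other ERK target genes gave 16 of 17 measured and 13 at 6 or more, of which 10 had a higher and 3 a lower mean in irradiated cultures, with a median of 0.12. In all 3 experiments 2 were lower and 0 higher. These 2 were Ier3, an early response gene with a role in cell survival, at -0.75 ± 0.15 (SE), and the ephrin receptor gene Epha2, at -0.68 ± 0.13 (SE). Epha2 differed by -0.78, -0.37 and -0.90 in the 3 experiments. Myc differed by 0.44 ± 0.20 (SE), made of 0.71, -0.20 and 0.82, and Plaur, the urokinase receptor gene, by -0.28 ± 0.13 (SE).

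Inhibitors outside the 10 genes differed in both directions, from -0.34 to 0.26 on their brightest probe sets. Of 9 other Sprouty, Spred and MAP kinase phosphatase genes all were measured and 5 reached 6, with 0 lower and 1 higher in all 3 experiments and a median of -0.05. Dusp1, the phosphatase gene induced by stress and glucocorticoids, differed by -0.02, -0.59 and 0.21, and so had its lowest difference in experiment 2, as Dusp6 did. Dusp7, Dusp10 and Dusp16 differed by -0.11, 0.12 and -0.05. Among 16 other inhibitors of receptor and Ras signalling, all measured, 13 reached 6, with 1 lower and 3 higher in all 3 experiments and a median of 0.09. Socs5 differed by -0.29 ± 0.10 (SE), Lrig3 by 0.26 ± 0.10 (SE) and Socs2 by -0.34 ± 0.19 (SE), the last with -0.95 in experiment 3. The second probe set at 6 or more differed by -0.45 ± 0.11 (SE) for Socs5, 0.22 ± 0.12 (SE) for Lrig3 and -0.36 ± 0.22 (SE) for Socs2. Probe sets of the ubiquitin ligase gene Cblb disagreed, with 0.21 ± 0.13 (SE) on the brightest and -0.48 ± 0.09 (SE) on the next.

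**Figure D4:**
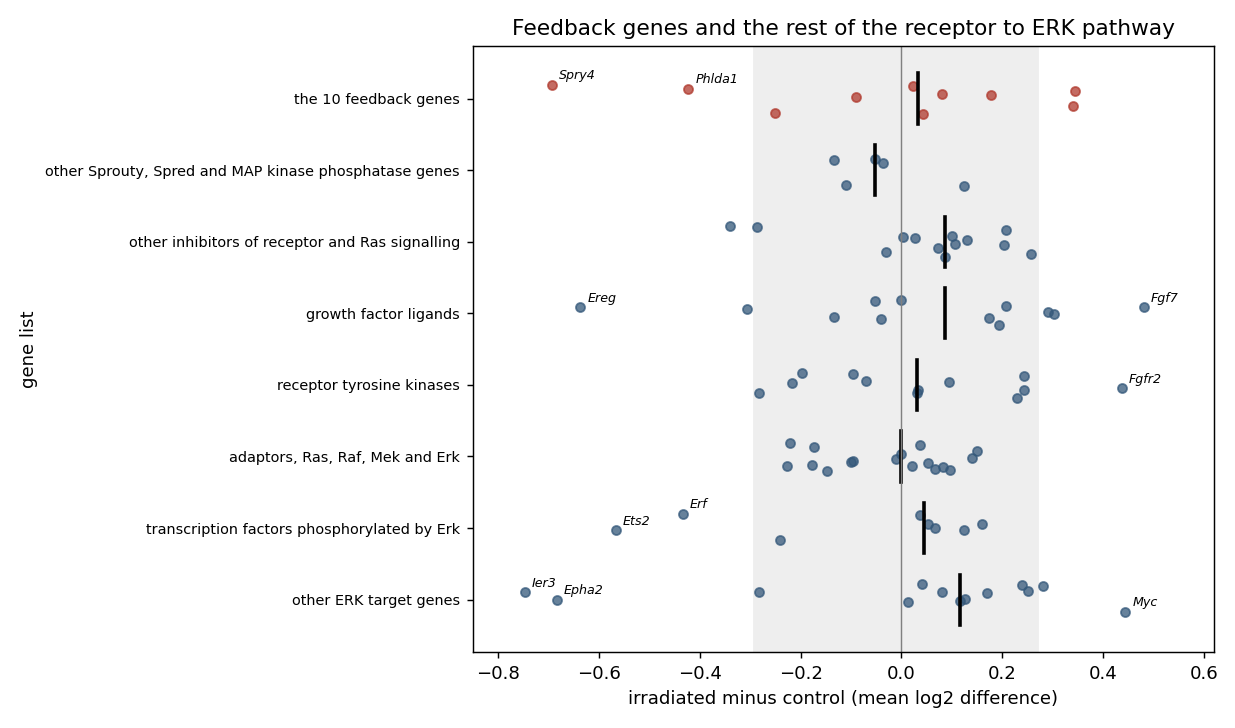
Mean irradiated minus control log2 difference of genes with a mean of at least 6 in 1 group, by list, with the 10 feedback genes in red, list medians as black bars and the 5th to 95th percentile of the 9302 genes, -0.29 to 0.27, in grey. The vertical position within a list carries no value, and genes differing by more than 0.4 are named. The feedback genes and most lists spread to both sides of 0, with Ier3, Spry4 and Epha2 furthest left and Fgf7 furthest right.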

How the data were processed

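Total RNA (200 ng) from 3 irradiated and 3 control cultures was labelled for Affymetrix mouse arrays. The authors deposited log2 expression per probe set, to 2 decimals, made with RMA and affy; limma is also named, per the submitters' processing notes. Versions and the background step were not given in the sources used here.

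After 64 array controls were left out, 45037 probe sets were fitted with limma 3.58.1 in R 4.3.3 (lmFit, eBayes, two-sided, Benjamini-Hochberg over all probe sets), with the experiment as a block, since the design text sets each irradiated culture against its own adjacent control. Deviations from group means correlated at 0.787, 0.028 and 0.324 within the pairs of experiments 1, 2 and 3, so the pairing rests on that text. Degrees of freedom were 2 (residual) and 4.52 (prior). This fit, which also gave the SE values, was tested on simulated data.

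Of the probe sets 34945 carried 1 symbol, 932 several and 9160 were unnamed here. A gene was read from its brightest probe set over the 6 arrays. A mean of 6 in 1 group was the level below which a probe set was called dim. From each pathway list the text names up to 4 genes at that level with the largest moderated statistic, and it gives all 10 feedback genes in full. Similar profiles were sought among genes at that level with an SD of at least 0.15. Members, lists and motifs were chosen with earlier results of these data known. Other settings tried were a fit without the block or with it as a random effect, omission of each experiment or of dim probe sets, quantile or median scaling of the arrays, a robust prior with an intensity trend, and averaging all probe sets of a gene. Python 3.11.15 with matplotlib 3.10.9 drew the figures.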

Additional observations from a re-analysis of the deposited data

Results flagged for a closer look

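The spiked hybridisation controls, which enter no comparison, were brighter on the irradiated than on the control array of experiment 3, by 0.502 on the log2 scale over 18 probe sets, with a mean signal of 11.73 on the irradiated and 11.23 on the control array. In experiments 1 and 2 the same difference was 0.08 and -0.03. Experiment 3 held the widest differences of Spry2, Spry4, Spred1 and Dusp5, and its differences were also wider over all 9302 genes, with an SD of 0.318 against 0.205 in experiment 1 and 0.227 in experiment 2. The part of the brighter controls in these values was not tested.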

How the results depend on the processing

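With experiments as blocks no probe set passed by limma. The same count of 0 came from the fit with no replicate block, with each experiment left out, with dim probe sets left out, after quantile normalization or median centring and with an intensity trend, while 2 probe sets passed with the experiment as a random block, those of Gem (adjusted p = 0.0262) and Rhpn2 (adjusted p = 0.0343), named after their values were seen. None of the measured pathway genes passed under any of the 10 alternatives run. The count at an unadjusted p under 0.05 was 3631 with the block, 2168 with no replicate block, 2260 with dim probe sets left out, where fewer were tested, and 1692 to 3748 with each experiment left out. The median difference of the 10 feedback genes was 0.033 and ran from -0.0425 to 0.1075 with each experiment left out. The number lower in all experiments was 3, ran from 3 to 4 with each experiment left out, and was 2 after median centring or with the mean over a gene's probe sets. The number higher in all was 1, ran from 1 to 4 with each experiment left out, and was 0 with the mean over a gene's probe sets. With an experiment left out, all means the 2 that remain, which is a looser rule for both counts. The share over all genes under that rule was not computed. For 7 of the 10 genes the sign of the mean difference was kept under all 10 alternatives. Spred1 changed sign under 2, and Dusp4 and Etv5 under 1 each. Signal limits Spry4 most, whose brightest probe set had a mean of 6.57 over the 6 arrays, close to the level of 6.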
